A study of Mus musculus with 25 samples.

Results

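The replication-dependent histone genes are the genes for the core histones H2A, H2B, H3 and H4 and the linker histone H1 that are named Hist1h, Hist2h, Hist3h or Hist4h in the older mouse nomenclature. Of 70 genes with such a symbol, 3 pseudogenes (Hist1h2aj, Hist1h2al and Hist3h2bb-ps) were left out, which gave 67 members, 57 of them among the 35561 genes listed in either deposited table. They comprised 6 H1, 18 H2A, 18 H2B, 12 H3 and 13 H4 genes, of which 54 lie on chromosome 13, 10 on chromosome 3, 2 on chromosome 11 and 1 on chromosome 6. The members were taken by name and not by their values.

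The libraries were made by Smart-seq2, which produces full-length cDNA from very small inputs with an oligo(dT) primer, which anneals to a poly(A) tail. All samples came from C57BL/6 mice. Oocytes at the germinal vesicle stage spent 16 h in culture and reached metaphase II (MII), when the egg waits for sperm; the embryos arose by fertilization in a dish over 6 h. The labels name the agent as VCD or as PBS, a buffered salt solution. VCD is a small molecule for which they give neither the full name nor the dose. The 25 libraries were MII oocytes with VCD (n = 5) and with PBS (n = 4), 2-cell embryos with VCD (n = 4) and with PBS (n = 4), and morulae, the compacting embryos before the blastocyst cavity forms, with VCD (n = 4) and with PBS (n = 4). The labels do not say how many oocytes or embryos a library holds, nor that its group mates are from other animals or dishes. The p-values therefore reflect the spread between these samples alone, which may be technical.

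Replication-dependent histone genes are transcribed mainly in S phase, when new DNA has to be packed into nucleosomes. Their mRNAs are the known exception among animal mRNAs in that they end in a short conserved stem-loop instead of a poly(A) tail: the stem-loop binding protein Slbp holds the stem-loop, and a small complex with the U7 RNA directs the cut just after it. A minority of copies can also be cut further downstream and polyadenylated, and the maternal histone mRNA of mouse oocytes is held by Slbp. The replication-independent variant histones, such as H3f3b and H2afz, have ordinary poly(A) tails. Priming on poly(A) therefore sees the stem-loop ended mRNAs poorly or not at all, and every level given here is that of the captured RNA, not of all mRNA of a gene.

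The stem-loop is shown for the 6 members with a value of 1 FPKM or more in some group whose longest annotated transcript reaches past it and that the results turn on. FPKM is the number of fragments counted in a gene, scaled to the length of the gene and to the total counted in the library. Stems and loop are in capitals, and positions refer to GRCm38 as annotated by GENCODE M21.
Hist1h4c, chr13:23698084-23698109, minus strand: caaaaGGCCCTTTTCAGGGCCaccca
Hist1h4d, chr13:23581945-23581970, plus strand: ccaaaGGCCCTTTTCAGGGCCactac
Hist1h4i, chr13:22040961-22040986, minus strand: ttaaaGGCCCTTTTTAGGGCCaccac
Hist1h3f, chr13:23544927-23544952, plus strand: aaaacGGCTCTTTTAAGAGCCacctc
Hist1h1c, chr13:23739507-23739532, plus strand: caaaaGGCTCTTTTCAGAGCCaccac
Hist3h2ba, chr11:58949344-58949369, plus strand: ccaaaGGCTCTTTTCAGAGCCacctt
A stem-loop of 6 paired bases around a loop of 4 was found in an annotated transcript of 44 of the 67 members. The left stem read GGCTCT in all such H1 (4), H2A (11), H2B (10) and H3 (8) members, and GGCCCT (9 members) or GGTCCT (2 members) in the H4 members. The loop read TTTC in 35 members, TTTA in 6 and TTTT in 3. In the other members the annotated transcript held no such stem-loop, as for Hist1h1a, Hist1h2aa, Hist1h2ba and Hist1h3g.

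Read from the steps between low FPKM values, the 25 libraries held between 15075831 and 20998296 counted fragments, so that 1 fragment in a gene of 1 kb was worth between 0.0476 and 0.0663 FPKM. The labelled stages carried their own markers: 7 oocyte markers such as Gdf9 summed to between 7735 and 10725 FPKM in MII oocytes, 5 markers of the 2-cell stage such as Zscan4d to between 820 and 1282 FPKM in 2-cell embryos, and 7 morula markers such as Nanog to between 186 and 326 FPKM in morulae. Each sum was highest in its own stage but not confined to it. The oocyte markers summed to between 2912 and 3747 FPKM in 2-cell embryos and between 28.7 and 60.2 FPKM in morulae. The 2-cell markers summed to between 55.1 and 72.1 FPKM in oocytes and at most 18.1 FPKM in morulae. The morula markers summed to between 51.3 and 79.3 FPKM in oocytes and between 30.4 and 46.8 FPKM in 2-cell embryos. Markers of cumulus and granulosa cells, which can cling to an oocyte, summed to between 7.497 and 11.6 FPKM in oocytes, between 2.51 and 3.69 FPKM in 2-cell embryos and at most 0.0991 FPKM in morulae; sperm protamine and transition protein genes summed to at most 1.75 FPKM in any library. In libraries that may hold more than 1 cell, fewer cells that express a gene and less RNA per cell cannot be told apart.

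Captured RNA of the replication-dependent histone genes was scarce in all 6 groups. Of the 67 members, 30 were listed in the oocyte table and 55 in the embryo table, 28 in both and 10 in neither. Only 13 members averaged 1 FPKM or more in at least 1 group, 3 reached 5 FPKM (Hist1h1a, Hist1h4d and Hist1h4c) and Hist1h1a alone passed 10 FPKM. All members together gave between 185 and 808 fragments per library and between 0.00375% and 0.0217% of all FPKM. The summed level was between 11.3 and 21.3 FPKM in MII oocytes, between 40.5 and 76.2 FPKM in 2-cell embryos and between 17.2 and 41.6 FPKM in morulae. The 12 replication-independent histone genes, set beside them, summed to between 6383 and 7514 FPKM, between 1437 and 1653 FPKM and between 805 and 1261 FPKM in the same 3 stages.

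The oocyte and the embryo libraries are in separate tables, normalized separately, and the tables did not use the same gene lengths. The length behind a value can be read from the size of its steps: in the oocyte table all 30 listed members fitted the summed exon length of GENCODE M21, whereas among the embryo values 18 of 55 members fitted another length, 16 of them a shorter one. Hist1h4c had 395 bases in the embryo table against 820 in the annotation, Hist1h4d 393 against 1138, Hist1h3f 848 against 1261, Hist1h3g 427 against 530 and Hist1h1a 642 against 741. If the shorter models of Hist1h4c and Hist1h4d start where the annotated ones do, they end 29 and 25 bases past the stem-loop, while Hist1h4i (330 bases past it), Hist1h1c (840 bases) and Hist3h2ba (169 bases) kept their longer ends in both tables. Over all genes, 3094 of the embryo table and 1740 of the oocyte table fitted another length than the annotated one. Levels of oocytes and embryos are therefore given side by side without a test, while morulae and 2-cell embryos share a table and a gene model.

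**Figure D1:**
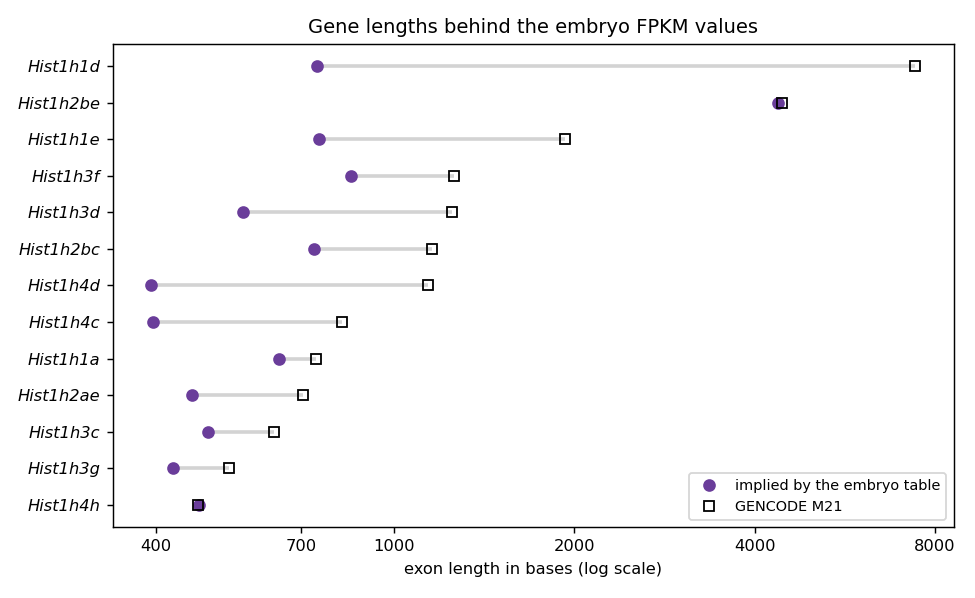
Exon length in bases on a log scale implied by the steps of the embryo FPKM values (filled points) and annotated in GENCODE M21 (open squares), for the 13 members with another implied length and at least 5 fragments in some embryo library. Hist1h4c and Hist1h4d lie at 395 and 393 bases, against 820 and 1138 bases in the annotation.

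Near-identical copies limit what a count can say for many members. The share of 50-base words of a gene's transcripts that also occur in another annotated gene was under 20% for 13 members, of which 6 averaged 1 FPKM or more in some group, between 20% and 50% for 20 members, of which 6 did, and 50% or more for 34 members, of which 1 did (Hist1h3g, 54.1%). The medians of the members' highest group means were 0.51, 0.540 and 0.0761 FPKM in these 3 classes. The share was 0% for Hist1h1a and Hist1h1b, 8.5% for Hist1h1c, 10.2% for Hist1h4d, 19.6% for Hist1h4c, 22.1% for Hist3h2ba, 23.8% for Hist1h2aa, 28.9% for Hist1h4i, 38.2% for Hist1h2ba and 49.3% for Hist1h3f. Within the shorter embryo lengths it was 43.6% for Hist1h4c, 32.3% for Hist1h4d, 35.0% for Hist1h3f and 68.8% for Hist1h3g. How fragments that fit more than 1 copy were counted is not stated, so the levels of these genes are uncertain to that extent; that of Hist1h1a does not share the limit. Hist2h2aa1, Hist2h2aa2, Hist2h2bb, Hist2h3b and Hist2h3c1 are copied in full elsewhere and were listed in neither table.

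The classes differed in their course over the stages. H1 genes summed to 4.39 ± 1.06 FPKM in MII oocytes with VCD and 3.79 ± 1.32 FPKM with PBS, to 27.05 ± 9.06 FPKM with VCD and 29.4 ± 9.17 FPKM with PBS in 2-cell embryos, and to 4.56 ± 1.30 FPKM with VCD and 4.33 ± 1.34 FPKM with PBS in morulae (SD; n = 5 with VCD and 4 with PBS in oocytes, 4 each in embryos). H4 genes summed to 3.68 ± 1.22 FPKM with VCD and 3.81 ± 1.33 FPKM with PBS in oocytes, to 10.4 ± 3.85 FPKM with VCD and 9.96 ± 0.684 FPKM with PBS in 2-cell embryos, and to 14.7 ± 4.46 FPKM with VCD and 14.97 ± 4.76 FPKM with PBS in morulae. The H4 sums of oocytes and embryos rest on unlike gene lengths, 820 against 395 bases for Hist1h4c. Sums of the other classes also rest on some unlike lengths, such as 741 against 642 bases for Hist1h1a and 1261 against 848 for Hist1h3f. In fragments per library, Hist1h4c had 12 to 51 with VCD and 20 to 48 with PBS in oocytes. In 2-cell embryos it had 26 to 57 with VCD and 25 to 39 with PBS, so its fragments overlapped between these stages. With VCD and with PBS, H2B genes summed to 2.71 and 2.01 FPKM in oocytes, 8.15 and 7.07 FPKM in 2-cell embryos, and 1.02 and 1.90 FPKM in morulae. In this description the H1 and H2B sums were highest in 2-cell embryos and their 2-cell libraries did not overlap with those of the other stages, whereas the H4 sums of morulae and 2-cell embryos overlapped. With VCD and with PBS, H3 genes summed to 1.70 and 2.19 FPKM in oocytes, 7.10 and 7.32 FPKM in 2-cell embryos, and 4.55 and 5.25 FPKM in morulae. H2A genes were the one class with its highest sums in oocytes, at 4.49 FPKM with VCD and 4.92 FPKM with PBS, while they summed to 2.40 and 1.83 FPKM in 2-cell embryos and 1.26 and 1.71 FPKM in morulae.

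**Figure D2:**
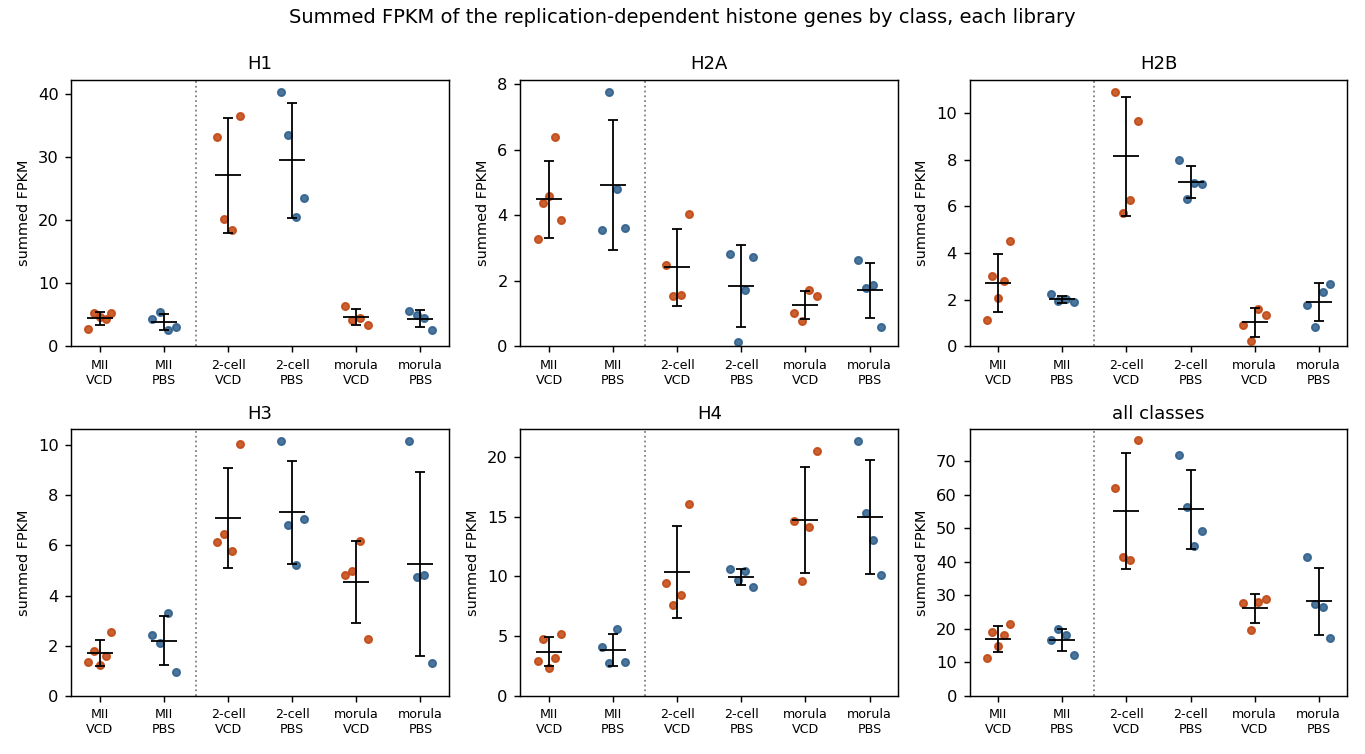
Summed FPKM of the members of each histone class and of all classes in each library, with the mean (long bar) and SD (whiskers) of each group. The dotted line parts the oocyte table from the embryo table. The H1 sum lies between 18.5 and 40.3 FPKM in 2-cell embryos and at most 6.35 FPKM in the other stages.

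A few genes made up most of each sum, and they changed with the stage. In MII oocytes with VCD and with PBS the leading members were Hist1h2aa (25.5% and 28.7% of the summed group means), Hist1h1a (17.7% and 14%) and Hist1h4c (11.5% and 13.5%). In 2-cell embryos Hist1h1a held 45.9% with VCD and 50.6% with PBS, followed by Hist1h4c with 9.2% and 8.9%. In morulae Hist1h4d led with 35.6% and 29.9%, followed by Hist1h4i with 12.5% and 15.3% and Hist1h3g with 8.2% and 7.4%. The same 3 members led, in the same order, with either agent in oocytes and in morulae.

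**Figure D3:**
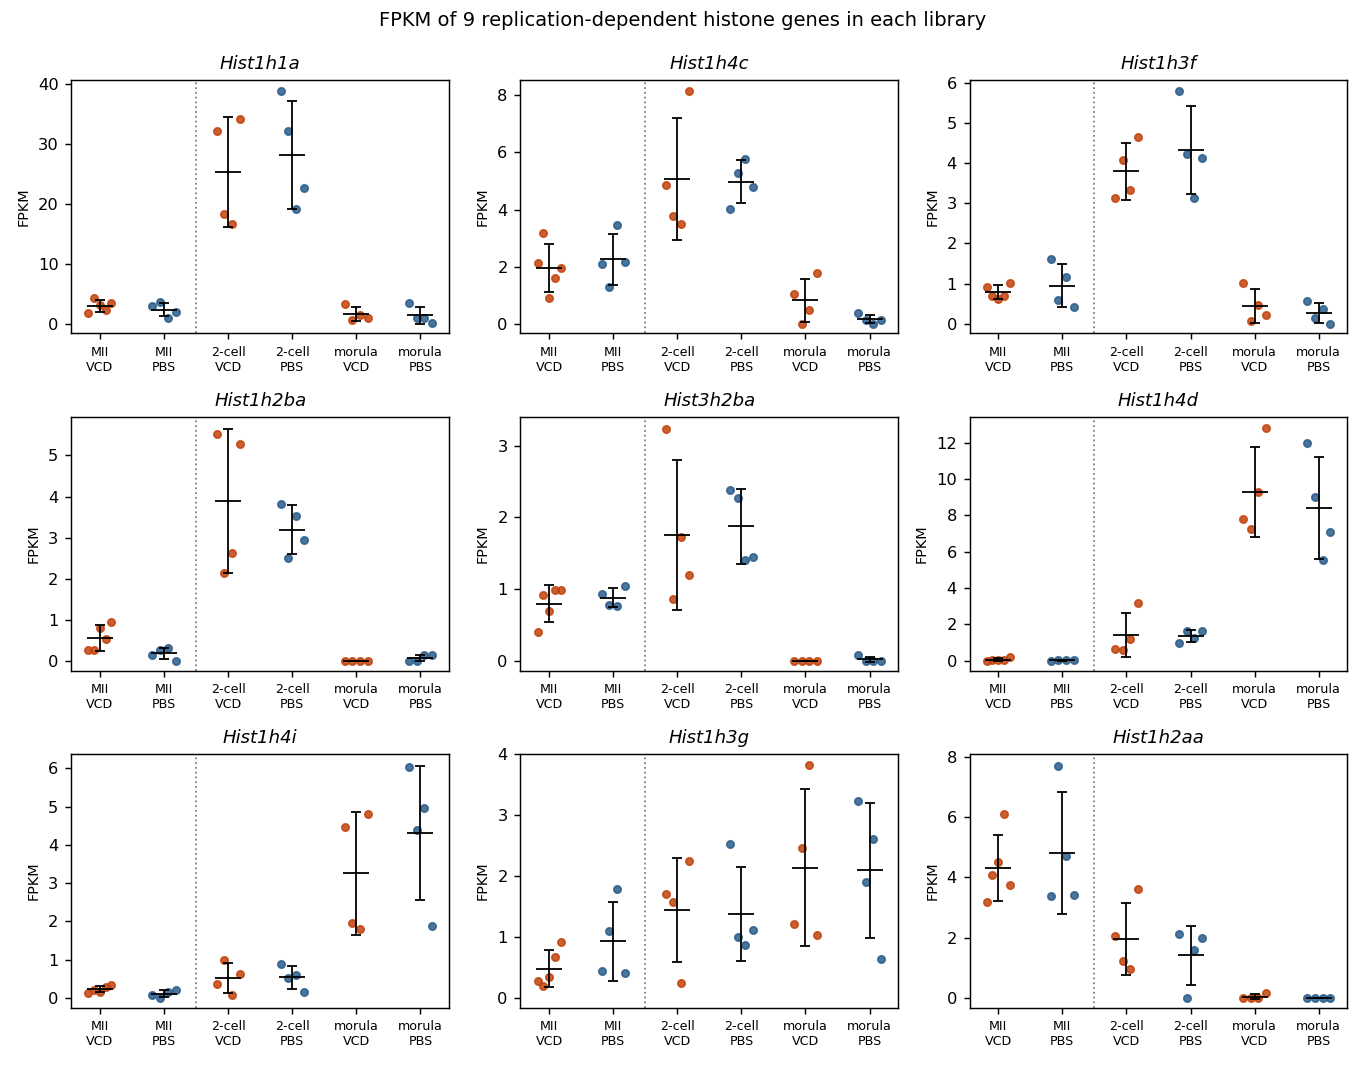
FPKM of 9 members in each library (points), with the mean and SD of each group; the dotted line parts the oocyte table from the embryo table, and the FPKM axes differ between genes. Hist1h1a, Hist1h4c, Hist1h3f, Hist1h2ba and Hist3h2ba have their highest group means in 2-cell embryos, Hist1h4d and Hist1h4i in morulae and Hist1h2aa in oocytes. Gene lengths differ between the oocyte table and the embryo table for Hist1h1a, Hist1h4c, Hist1h3f, Hist1h4d and Hist1h3g.

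In MII oocytes, Hist1h2aa, the gene of an H2A known from testis and also described in oocytes, was at 3.20, 4.08, 4.50, 6.09 and 3.76 FPKM with VCD and at 3.40, 7.71, 4.70 and 3.43 FPKM with PBS. The embryo table gave it at 2.04, 1.23, 0.953 and 3.62 FPKM in 2-cell embryos with VCD and at 2.12, 0, 1.58 and 1.98 FPKM with PBS, and it was listed at 0 in 7 of 8 morula libraries. Its exon overlaps that of Gm44344 in the annotation, so fragments of both cannot be told apart without strand. Hist1h1a, the gene of a linker histone H1 subtype, was at 1.75, 4.37, 3.10, 2.32 and 3.46 FPKM with VCD and at 2.88, 3.56, 0.958 and 1.95 FPKM with PBS in oocytes. Hist1h4c was at 2.13, 3.19, 0.885, 1.60 and 1.94 FPKM with VCD and at 2.11, 1.29, 3.46 and 2.15 FPKM with PBS. The 2 groups of oocytes overlapped for each of these genes. The leading H2B gene was Hist1h2bc with VCD (1.16 ± 0.782 FPKM, n = 5, against 0.835 ± 0.116 FPKM with PBS, n = 4); Hist3h2ba averaged 0.7996 ± 0.252 FPKM with VCD (n = 5) and led with PBS (0.882 ± 0.134 FPKM, n = 4). Hist1h4d and Hist1h4i, which led in morulae, did not exceed 0.215 and 0.336 FPKM in any oocyte library. The FPKM of Hist1h4d rest on 1138 bases in oocytes and 393 in embryos. In fragments it had at most 4 in an oocyte library, against 46 to 79 in morulae with VCD and 41 to 99 with PBS.

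The change between the 2-cell stage and the morula was the clearest pattern of these genes. It was tested with limma, a linear model fitted across all genes, on log2(FPKM + 1), for genes that reached 1 FPKM in 4 or more of the libraries compared; a gene was called at a Benjamini-Hochberg adjusted p below 0.05. With VCD 7 members could be tested and 6 were called, 4 lower and 2 higher in morulae, where 84.8% of 12355 genes were called (43.9% lower and 41% higher). With PBS 8 members could be tested and 7 were called, 5 lower and 2 higher, where 87.7% of 12517 genes were called (45% lower and 42.7% higher). The shares of members called, 6 of 7 and 7 of 8, were thus near those of all genes. The median log2 difference was -1.76 over the tested members with VCD and -1.72 with PBS, against -0.08 over all tested genes in both. Members that passed the filter through the stage where they were high had to differ, so these counts and medians describe the tested genes and not all 67. Scaling by the median ratio of the genes moved the median of all tested genes to -0.48 in both comparisons, and every member kept its direction and its call. The 2 comparisons share no libraries.

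Hist1h1a had the largest log2 difference of the tested members with either agent. It was at 3.34, 0.675, 1.42 and 0.99005 FPKM in morulae with VCD against 32.1, 18.3, 16.6 and 34.2 FPKM in 2-cell embryos with VCD. With PBS it was at 3.49, 0.994, 0.9903 and 0.0853 FPKM in morulae against 38.8, 32.1, 19.1 and 22.6 FPKM in 2-cell embryos. Every morula library lay far below every 2-cell library, and the means were 15.8-fold lower with VCD and 20.3-fold lower with PBS. The log2 difference was -3.37 (SE 0.33, adjusted p = 2.6e-06) with VCD and -3.75 (SE 0.38, adjusted p = 3.5e-06) with PBS. In fragments, Hist1h1a had between 7 and 37 in morulae with VCD and between 1 and 47 with PBS, against between 201 and 389 and between 199 and 391 in the 2-cell embryos. Hist1h1a made up a median of 92.2% of the H1 sum in 2-cell embryos with VCD and 96% with PBS.

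The other H1 genes were low. Hist1h1c was at 2.00, 1.90, 0.670 and 1.59 FPKM in morulae with VCD and at 0.794, 1.60, 1.46 and 1.72 FPKM in morulae with PBS, against means of 0.485 ± 0.295 FPKM and 0.332 ± 0.236 FPKM in the 2-cell embryos (SD, n = 4 each). With 3 libraries at 1 FPKM in each comparison it stayed below the filter; without a filter it was called higher in morulae with both agents (log2 difference 0.76, adjusted p = 0.028 with VCD, and 0.84, adjusted p = 0.0050 with PBS). Hist1h1b averaged 0.865 ± 0.606 FPKM in morulae with VCD and 1.02 ± 0.559 FPKM with PBS, against 0.856 ± 0.474 FPKM and 0.401 ± 0.241 FPKM in 2-cell embryos. Hist1h1t, the testis H1, was at 0 in all embryo libraries other than 1 of 2-cell embryos with VCD, where it had 0.387 FPKM. From 1 value above 0 neither the gene length nor the number of fragments can be read. It was entered as 1 in the fragment totals.

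Among the H4 genes, which are known to encode an identical protein, the leading gene differed between the stages. Hist1h4c was at 1.03, 0, 0.496 and 1.77 FPKM in morulae with VCD against 4.87, 3.78, 3.49 and 8.14 FPKM in 2-cell embryos, and at 0.362, 0.147, 0 and 0.139 FPKM in morulae with PBS against 4.03, 5.29, 5.77 and 4.804 FPKM in 2-cell embryos. Its groups did not overlap, and it fell by 1.77 on the log2 scale with VCD (SE 0.32, adjusted p = 0.00036) and by 2.36 with PBS (SE 0.14, adjusted p = 4.3e-08). Hist1h4d went the other way, with 7.81, 7.24, 9.31 and 12.8 FPKM in morulae with VCD against 0.675, 0.612, 1.22 and 3.16 FPKM in 2-cell embryos, and with 11.997, 9.01, 5.53 and 7.11 FPKM in morulae with PBS against 0.972, 1.64, 1.25 and 1.66 FPKM in 2-cell embryos. Its means were 6.56-fold higher in morulae with VCD and 6.09-fold higher with PBS, and the log2 differences were 2.17 (SE 0.31, adjusted p = 4.8e-05) and 1.95 (SE 0.21, adjusted p = 6.3e-06). Hist1h4i was also higher in all morulae than in all 2-cell embryos, with 4.46, 1.96, 1.80 and 4.81 FPKM against 0.365, 0.993, 0.0730 and 0.621 FPKM with VCD and with 6.03, 4.39, 4.96 and 1.88 FPKM against 0.876, 0.516, 0.593 and 0.163 FPKM with PBS. Its log2 differences were 1.45 (SE 0.28, adjusted p = 0.00059) and 1.74 (SE 0.26, adjusted p = 8.6e-05). Hist1h4i with either agent passed the filter through the morulae alone, and Hist1h4c with PBS through the 2-cell embryos alone. For these the filter fixed the direction.

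Given as shares of the H4 sum of the same library, Hist1h4c held a median of 5.25% in morulae with VCD and 1.2% in morulae with PBS, against 50.2% and 53.6% in the 2-cell embryos. Hist1h4d held 64.05% and 57.5% in morulae, against 11.2% and 14.45% in 2-cell embryos. Hist1h4i held 21.85% and 28.45% in morulae, against 3.9% and 5.5% in 2-cell embryos. These shares describe the libraries and were not tested. Hist2h4, the H4 gene of the cluster on chromosome 3 with a transcript that extends 1257 bases past its stem-loop, averaged 0.490 ± 0.643 FPKM in morulae with VCD and 0.146 ± 0.178 FPKM with PBS, against 1.17 ± 0.571 FPKM and 1.14 ± 0.587 FPKM in 2-cell embryos. Hist4h4, the lone member on chromosome 6, did not exceed 0.371 FPKM in any library.

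The H3 genes Hist1h3f and Hist1h3g differed in their course. Hist1h3f was at 1.02, 0.0730, 0.462 and 0.225 FPKM in morulae with VCD against 3.13, 4.08, 3.32 and 4.66 FPKM in 2-cell embryos, and at 0.562, 0.137, 0.375 and 0 FPKM in morulae with PBS against 5.78, 4.23, 3.13 and 4.13 FPKM in 2-cell embryos. The groups did not overlap, and Hist1h3f fell by 1.76 with VCD (SE 0.21, adjusted p = 1.2e-05) and by 2.07 with PBS (SE 0.19, adjusted p = 1.2e-06) on the log2 scale. With PBS Hist1h3f passed the filter through the 2-cell embryos alone, so that the filter fixed its direction there. With VCD 1 morula library, at 1.02 FPKM, reached 1 FPKM beside all 4 2-cell libraries, so that the filter bore on this direction too. Hist1h3g was the leading H3 gene of morulae, at 1.22, 2.46, 3.83 and 1.04 FPKM with VCD and at 3.23, 1.90, 2.61 and 0.641 FPKM with PBS, against 1.71, 1.58, 0.249 and 2.25 FPKM in 2-cell embryos with VCD and 2.54, 1.004, 0.866 and 1.11 FPKM in those with PBS. Its stages overlapped and it was not called, with log2 differences of 0.36 (95% interval -0.40 to 1.11, adjusted p = 0.345) with VCD and 0.35 (-0.317 to 1.008, adjusted p = 0.291) with PBS. With 68.8% of its words found in other genes, its level is among the least certain.

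Of the H2B genes, Hist1h2ba with either agent and Hist3h2ba with PBS passed the filter, and they did so through the 2-cell embryos alone, so that the filter fixed their direction. Hist1h2ba, the gene of an H2B known from testis, was listed at 0 in all 4 morulae with VCD against 5.53, 2.13, 2.63 and 5.29 FPKM in 2-cell embryos, and at 0, 0, 0.138 and 0.143 FPKM in morulae with PBS against 3.81, 2.51, 3.53 and 2.93 FPKM in 2-cell embryos. A count of 0 was taken as up to 3 fragments in a library, or at most 0.511 FPKM for this gene. On that floor the mean of the morulae with VCD was at least 7.63-fold below the 2-cell mean, whose spread the bound leaves out. The fitted log2 differences, whose size depends on the added 1 FPKM, were -2.22 (SE 0.23, adjusted p = 4.6e-06) with VCD and -1.96 (SE 0.13, adjusted p = 8.5e-08) with PBS. Hist3h2ba, an H2B gene of the small cluster on chromosome 11, was at 0.0776, 0, 0 and 0 FPKM in morulae with PBS against 2.39, 2.27, 1.41 and 1.45 FPKM in 2-cell embryos, a log2 difference of -1.48 (SE 0.13, adjusted p = 1.2e-06). All 4 morulae with VCD had Hist3h2ba at 0, against 3.24, 0.862, 1.73 and 1.19 FPKM in 2-cell embryos. On the same floor its mean in these morulae was at least 5.5-fold lower, but with 3 libraries at 1 FPKM it stayed below the filter. No H2A gene could be tested; Hist1h2ae, which led the H2A genes of morulae, averaged 0.652 ± 0.382 FPKM with VCD and 0.629 ± 0.322 FPKM with PBS there, against 0.159 ± 0.185 FPKM and 0 FPKM in the 2-cell embryos.

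**Figure D4:**
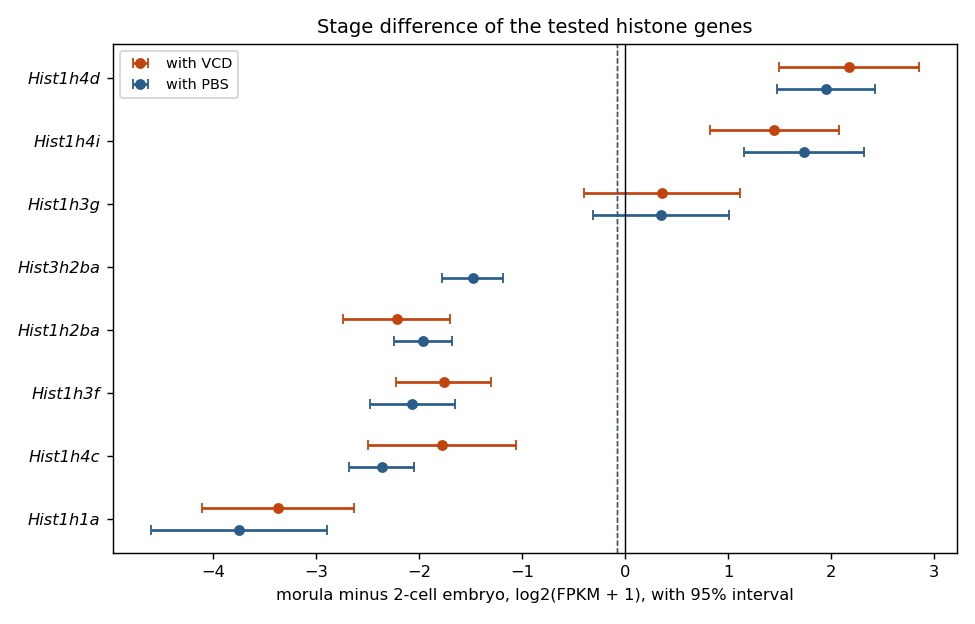
Morula minus 2-cell difference of the tested members on the log2(FPKM + 1) scale with its 95% interval, with VCD (upper point of each pair) and with PBS (lower point); the dashed line is the median of all tested genes at -0.08. Hist3h2ba was tested with PBS alone. The intervals of Hist1h4d and Hist1h4i lie above 0, those of Hist1h3g cross it and those of the other genes lie below it.

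With no filter on low values, 52 members could be tested with VCD and 18 were called, 11 lower and 7 higher in morulae, where 46.6% of 31446 genes were called (26.4% lower and 20.3% higher). With PBS 51 could be tested and 18 were called, again 11 lower and 7 higher, where 49.4% of 31817 genes were called (27.9% lower and 21.6% higher). By class, the H2B genes called were all lower, 5 with VCD and 4 with PBS, and the H4 genes split into 3 lower and 3 higher with each agent. Several of these calls rest on very few fragments: Hist1h4k, for example, had no fragment in the 2-cell embryos and 5 and 8 fragments in all in the morulae with VCD and with PBS.

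The promoters of the genes that went in different directions are shown, together with those of the neighbouring pair Hist1h2aa and Hist1h2ba. Each is the 150 bases before the gene's start in RefSeq (GRCm38.p6), 5′ to 3′ on the strand of the gene. Capitals mark the motifs searched on both strands: CCAAT, the box bound by NF-Y, TATAAA, the TATA box, ATTTGCAT, the octamer known from H2B promoters, GGTCC, the core of the element bound by Hinfp in H4 promoters, and AAACACA, a box known from H1 promoters.
Hist1h1a, chr13:23763518-23763667, plus strand: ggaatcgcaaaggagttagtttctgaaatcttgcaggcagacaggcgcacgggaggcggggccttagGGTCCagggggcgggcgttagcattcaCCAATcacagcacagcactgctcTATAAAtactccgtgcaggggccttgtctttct
Hist1h4c, chr13:23698459-23698608, minus strand: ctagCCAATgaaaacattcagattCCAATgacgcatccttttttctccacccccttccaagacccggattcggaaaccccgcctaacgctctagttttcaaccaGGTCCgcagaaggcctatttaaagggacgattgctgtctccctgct
Hist1h4d, chr13:23581418-23581567, plus strand: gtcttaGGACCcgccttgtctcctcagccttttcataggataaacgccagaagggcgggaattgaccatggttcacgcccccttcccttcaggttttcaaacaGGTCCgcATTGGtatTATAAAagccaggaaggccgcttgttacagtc
Hist1h4i, chr13:22041363-22041512, minus strand: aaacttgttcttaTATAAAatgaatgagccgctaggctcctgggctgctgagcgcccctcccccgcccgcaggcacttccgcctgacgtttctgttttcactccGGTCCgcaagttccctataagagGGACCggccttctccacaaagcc
Hist1h2aa, chr13:23934287-23934436, plus strand: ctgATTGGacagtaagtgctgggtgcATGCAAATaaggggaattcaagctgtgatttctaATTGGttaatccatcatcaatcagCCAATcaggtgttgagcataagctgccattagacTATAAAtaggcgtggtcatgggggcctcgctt
Hist1h2ba, chr13:23934157-23934306, minus strand: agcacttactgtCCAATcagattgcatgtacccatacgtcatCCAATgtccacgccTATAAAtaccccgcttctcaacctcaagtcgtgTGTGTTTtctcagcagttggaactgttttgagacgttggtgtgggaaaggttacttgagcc
Hist1h4c, which fell, and Hist1h4d and Hist1h4i, which rose, all carried GGTCC on the gene's strand with its first base 46 or 47 bases before the start, as did 6 H4 members in all. The window of Hist1h4d held TATAAA 32 bases before the start, that of Hist1h4i 137 bases before it, and that of Hist1h4c had no TATAAA. The windows of Hist1h2aa and Hist1h2ba overlap by 20 bases, since these genes are transcribed away from each other from starts that lie close together.

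Of the 67 members, 61 had a promoter in the RefSeq table, and motifs were counted in the 250 bases before the start. CCAAT was found in 50 of 61 members (82.0%), in all 5 H1, 18 H2A and 16 H2B promoters and in 3 of 12 H4 promoters, against 33.9% of all 32851 promoters. GGTCC was found in 11 of 12 H4 promoters (91.7%), against 39.8% of all promoters. The octamer was found in 7 of 18 H2A and 6 of 16 H2B promoters and in none of the other classes, against 1.60% of all promoters. AAACACA was found in 4 of 5 H1 promoters, against 6.25% of all; Hist1h1a, the H1 gene that fell, was the one without it. TATAAA was found in 28 members (45.9%), against 12.4% of all. Motifs can overlap by a few bases, and each was counted on its own. These matches describe the sequences, and nothing about the binding of a factor follows from them.

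VCD was also set against PBS at each stage. In MII oocytes 5 members could be tested and limma called none (0.0115% of 8715 genes were called), in 2-cell embryos 10 members and none (0% of 11369 genes), and in morulae 5 members and none (0.01% of 9959 genes). None of these members had an unadjusted p below 0.05, and limma-voom on the fragments recovered from the FPKM steps called none either and gave none below 0.05. Within the spread of 4 or 5 libraries per group, no difference between VCD and PBS was detectable for the tested histone genes. The intervals below are on the log2(FPKM + 1) scale, which understates the change of low genes, so larger relative changes than they span remain possible.

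In MII oocytes the member of smallest p was Hist1h1a, with 3.0 ± 1.015 FPKM with VCD and 2.34 ± 1.13 FPKM with PBS (SD, n = 5 and 4) and a log2 difference of 0.29 (95% interval -0.26 to 0.85, adjusted p = 0.99896). Hist1h4c differed by -0.15 (-0.66 to 0.36), Hist1h1c by -0.09 (-0.44 to 0.27), Hist1h2aa by -0.09 (-0.55 to 0.38) and Hist2h4 by 0.07 (-0.33 to 0.47) on that scale. All 5 intervals included 0. In 2-cell embryos Hist1h2aa, with 1.96 FPKM with VCD and 1.42 FPKM with PBS, differed by 0.34 (-0.51 to 1.18; 1.13 on the log2 scale of limma-voom), Hist1h3f by -0.14 (-0.53 to 0.26), Hist1h2ba by 0.16 (-0.39 to 0.71) and Hist1h1a by -0.17 (-0.78 to 0.45). The Hist1h1a means were 25.3 ± 9.13 FPKM with VCD and 28.2 ± 8.97 FPKM with PBS (n = 4 each), and both groups held 2 libraries above 30 FPKM and 2 below 23 FPKM.

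In morulae Hist1h4i, with 3.26 FPKM with VCD and 4.31 FPKM with PBS, differed by -0.33 (-1.08 to 0.42), Hist1h4d by 0.15 (-0.42 to 0.71), Hist1h1b by -0.13 (-0.78 to 0.52) and Hist1h1c by 0.07 (-0.47 to 0.61). Without a filter on low values, 30, 48 and 51 members could be tested in the 3 stages and none was called, where 0%, 0% and 0.0037% of all genes were, with 2, 1 and 2 of them at an unadjusted p below 0.05. These were Hist1h2ba and Hist2h3c2 in oocytes, Hist1h3h in 2-cell embryos, and Hist2h2be and Hist1h4a in morulae, named after their values were seen. Hist1h3h, an H3 gene, was at 0.323, 0.351, 0.517 and 0.137 FPKM in 2-cell embryos with VCD, which stood for 1 to 4 fragments a library, and was listed at 0 in all 4 libraries with PBS. The groups did not overlap, and the log2 difference was 0.41 (95% interval 0.22 to 0.60, unadjusted p = 0.00099, adjusted p = 0.921). With 93.9% of the words of Hist1h3h found in other genes, these fragments may belong to other copies. The effect of VCD in morulae was also set against that in 2-cell embryos, and none of 13 tested members was called (0% of 14144 genes), none with an unadjusted p below 0.05 by limma or limma-voom; with a pseudocount of 0.1 FPKM limma gave Hist1h4a an unadjusted p of 0.0459 (adjusted p = 0.998). Without a filter 55 members could be tested for it and none was called, where 0.00584% of all genes were (0.00292% in each direction). Hist1h3h alone had an unadjusted p below 0.05 for it (limma, log2 difference -0.80, adjusted p = 0.956). With the filter, the members of smallest p were Hist1h4a with -0.45 (-1.02 to 0.13), Hist1h4c with 0.59 (-0.21 to 1.39), Hist1h1b with -0.51 (-1.30 to 0.29) and Hist1h3f with 0.31 (-0.32 to 0.93). Limma-voom, whose scale compresses low genes less, gave -1.95 for Hist1h4a, 1.59 for Hist1h4c and -1.37 for Hist1h1b, outside those intervals, and called none of them. The Hist1h4c means were 6.16-fold lower in morulae with VCD and 30.7-fold lower with PBS, which rest on 0 to 11 and 0 to 3 fragments per morula library, and the test of that contrast did not separate them.

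**Figure D5:**
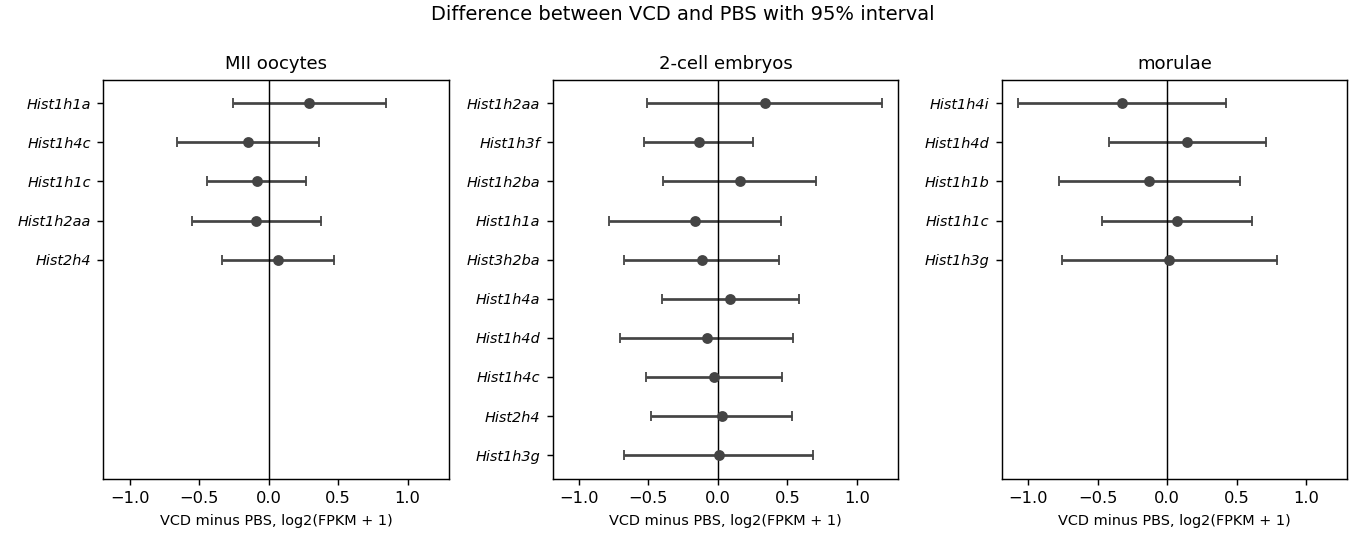
VCD minus PBS difference of every member tested in MII oocytes, 2-cell embryos and morulae on the log2(FPKM + 1) scale, with its 95% interval. All intervals include 0; the point estimates run from -0.33 (Hist1h4i in morulae) to 0.34 (Hist1h2aa in 2-cell embryos).

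Among the genes that make and process histone mRNA, the share called between the stages was near that of all genes (84.8% with VCD and 87.7% with PBS). Of 26 tested genes of histone mRNA transcription and processing, 12 were higher and 11 lower in morulae than in 2-cell embryos with VCD, and likewise with PBS; their median log2 difference was 0.06 with VCD and 0.00 with PBS. Slbp, which binds the stem-loop, averaged 57.7 ± 13.0 FPKM in morulae with VCD and 56.9 ± 7.29 FPKM with PBS, against 630 ± 67.1 FPKM and 563 ± 128 FPKM in 2-cell embryos, log2 differences of -3.44 (SE 0.17, adjusted p = 1.3e-08) and -3.26 (SE 0.18, adjusted p = 2.0e-08). In oocytes Slbp was at 1023 ± 139 FPKM with VCD (n = 5) and 1018 ± 63.3 FPKM with PBS (n = 4). Lsm11, a protein of the U7 complex, differed by -1.18 with VCD and -0.89 with PBS, and Casp8ap2, which joins that complex, by -1.54 with VCD and -1.40 with PBS, all called lower. Cpsf3, the endonuclease of both histone and poly(A) cleavage, was at 15.3 ± 2.01 FPKM in morulae with VCD and 15.2 ± 2.27 FPKM with PBS, against 0.767 ± 0.278 FPKM and 0.775 ± 0.152 FPKM in 2-cell embryos, and was called higher (log2 differences 3.21 with VCD and 3.18 with PBS). Npat, the coactivator of histone gene transcription, averaged 12.6 FPKM in morulae and 11.1 FPKM in 2-cell embryos with VCD, and 10.7 FPKM and 9.91 FPKM with PBS, and was not called.

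Of 27 tested histone chaperones, which carry histones to and from DNA, 15 were higher and 7 lower in morulae with VCD and 14 higher and 7 lower with PBS. Set and Hat1 rose (log2 differences 4.52 and 3.29 with VCD, 4.45 and 3.36 with PBS), as did the histone importer Ipo4 (3.42 with VCD and 3.72 with PBS), and the egg chaperone Npm2 fell (-5.07 with VCD and -5.20 with PBS). Of 35 tested genes of DNA replication and S phase, 23 were higher and 7 lower with each agent, with Tyms (4.35 with VCD and 4.70 with PBS) and Gins3 (4.53 and 4.17) of smallest p and Pcna called lower (-0.79 and -0.77). Of 9 tested replication-independent histones, 3 were higher and 2 lower with VCD and 5 higher and 3 lower with PBS. The oocyte linker histone H1foo averaged 0.848 ± 0.611 FPKM in morulae with VCD and 0.673 ± 0.113 FPKM with PBS, against 337 ± 40.9 FPKM and 286 ± 71.7 FPKM in 2-cell embryos, a log2 difference of -7.57 with VCD and -7.40 with PBS. H2afz rose to 405 ± 33.3 FPKM in morulae with VCD and 474 ± 101 FPKM with PBS, against 99.7 ± 24.7 FPKM and 97.4 ± 12.5 FPKM in 2-cell embryos. H3f3b was lower in morulae (-1.10 with VCD and -1.36 with PBS), while H3f3a differed by 0.57 with VCD, which was not called (adjusted p = 0.092), and by 0.67 with PBS, which was (adjusted p = 0.035). These lists were taken as a whole from textbook roles, and with 84.8% and 87.7% of all tested genes called, their counts are set against that background; none of their members was called between VCD and PBS in any stage.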

How the data were processed

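Smart-seq2 libraries of 9 MII oocyte, 8 2-cell and 8 morula samples were deposited by the authors as 2 tables of FPKM per gene, one for oocytes and one for embryos. Bowtie2 2.2.3, TopHat2 2.0.12 and the build galGal4 are named, per the submitters' processing notes, although the gene identifiers are those of mouse; the counter and the gene models are not named there. Members were matched by symbol through the GENCODE M21 annotation.

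FPKM values were used as deposited. Tests were run with limma 3.58.1 in R 4.3.3 (trended variance) on log2(FPKM + 1), over genes that reached 1 FPKM in 4 or more libraries compared, with Benjamini-Hochberg adjustment over all tested genes and a threshold of 0.05. Fold changes on this scale understate the change of low genes. Tables were handled with Python 3.11.15, pandas 2.3.3 and numpy 2.4.6. Fragment counts were recovered from the steps of the deposited FPKM values (between 90.6% and 93.4% of low values whole within 0.01) and tested with limma-voom as an alternative. Floors of 3 fragments cover counting error only, since the reads carry no molecular identifiers.

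Groups were taken from the labels. Libraries of the same number were not treated as pairs, since the labels give no shared origin. The correlations of their deviations from the group means lay between -0.325 and 0.378. With so few libraries per group these values cannot exclude a pairing. Members named were the highest of each class in each group, those called between the stages, the 4 of smallest p in each VCD comparison, and Hist1h1t, Hist1h2aa, Hist1h2ba and Hist4h4; Hist1h1b, Hist1h1c, Hist2h4, Hist1h2bc, Hist1h4k, Hist3h2ba, Hist1h3h, Hist2h3c2 and Hist2h2be are named beyond that where a count or a sequence called for them and were chosen after their values were seen. Of the other lists the 2 genes of smallest p in each comparison between the stages and a panel of 9 genes are named. The members and lists were chosen with earlier results of these data known. The tests were tried on simulated data. Alternatives were another pseudocount, no filter, median-ratio scaling, limma-voom, each library left out, the replicate number as a block, and members with few shared words.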

Additional observations from a re-analysis of the deposited data

Results flagged for a closer look

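Hist1h3g, an H3 gene, was at 2.535 FPKM in replicate 1 of the 2-cell embryos with PBS, while the other 3 libraries of that group held 1.004, 0.866 and 1.11 FPKM. The gap to the nearest of them was 0.853 of the range of the group. It was the one such library among 36 groups of values looked at, and chance alone gives about 1 in 20. These were the groups of members with a group mean of 1 FPKM or more, except those of Hist2h4, which were not looked at.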

How the results depend on the processing

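Between morulae and 2-cell embryos, the count of called members moved with the set of genes tested: without a filter it was 18 with VCD and 18 with PBS, with members under 20% of shared words it was 3 of 3 tested with each agent (1 higher, 2 lower), and within the lengths the embryo table implies it was 1 of 1 with each, Hist1h1a; this last alternative was chosen after seeing the data. The other 36 of 42 counts stayed within 1.5 times, and all 345 single-gene values kept direction and call, under the alternatives that keep every library. Between the stages, the members among the single-gene values were Hist1h1a and Hist1h4d with either agent and Hist1h4c with VCD. The remaining values were of genes of the lists and of the VCD comparisons. Other members called between the stages entered the counts and are not among the single-gene values. With the replicate block 6 members were called with VCD and 7 with PBS between the stages and 0 in each VCD comparison, as without it. With each library left out, the counts were 6 with VCD, between 7 and 8 with PBS and 0 in every VCD comparison. Of 660 such single-gene values 14 changed sign, none of them called: in MII oocytes Hist1h4c ran from -0.304 to 0.0174 and Hist1h2aa from -0.203 to 0.125; in 2-cell embryos Hist1h2aa ran from -0.0439 to 0.511, Hist1h2ba from -0.00635 to 0.347 and Hist1h1a from -0.328 to 0.00470; in morulae Hist1h4d ran from -0.0143 to 0.317, Hist1h1b from -0.325 to 0.0762 and Hist1h1c from -0.0642 to 0.258.

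Depth limits most members: all of them together held between 185 and 808 fragments per library. Levels cover RNA captured by poly(A) priming, near-identical copies were counted in a way that is not stated, and oocytes and embryos were normalized apart.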

Other observations

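Hist1h2aa and Hist1h2ba, the H2A and H2B genes transcribed away from each other from the overlapping promoter windows, were captured in different proportion at the stages. Their gene lengths were the same in both tables. In 9 of 9 oocyte libraries Hist1h2aa was the higher of the pair, with 24 to 47 fragments of Hist1h2aa and 2 to 6 of Hist1h2ba in a library with VCD, and 23 to 57 and 0 to 2 with PBS. In 8 of 8 2-cell libraries Hist1h2ba was the higher, with 17 to 36 fragments of Hist1h2ba and 7 to 25 of Hist1h2aa with VCD, and 18 to 23 and 0 to 13 with PBS. In morulae the pair had at most 1 fragment of either gene in a library. With so few fragments of Hist1h2ba in oocytes no ratio is given. The pair was picked after its values were seen, the difference between the stages was not tested, and part of both genes' words occurs in other genes.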
